A study of Mus musculus with 15 samples.

Results

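Expression in the normal organ was described from the 5 wild-type mice (WT) among the 15 mice of the series, chosen by their label alone. Each WT library came from the whole epididymis of 1 mouse aged 7 weeks, with no treatment named, and is called by its title: WT-709, WT-719, WT-720, WT-723 and WT-726. The genotype at Plag1, a gene for a DNA-binding zinc finger protein, is labelled Wild type and the strain Brown Swiss; the other 10 mice carry altered Plag1 alleles and were not used here. The organ was opened and washed in buffered saline to take out sperm before RNA was extracted, which limits what the libraries say of sperm, and poly(A) RNA was made into stranded libraries.

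The epididymis is the coiled duct behind the testis in which sperm mature and are stored. Its epithelium is made mostly of tall principal cells, which secrete proteins into the lumen, with acid-secreting clear and narrow cells and with basal cells below them, and smooth muscle surrounds the duct. Secretion is arranged along the duct: the initial segment and the caput, nearest the testis, release different proteins from the corpus and the cauda, and much of it depends on androgen. Beta-defensins, lipocalins, protease inhibitors and antioxidant enzymes are its best known products.

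The WT libraries held 20.3 to 27.8 M counts (median 25.7 M) and 25690 to 27010 genes with at least 1 count. Levels are in CPM, counts per M of library counts, with library sizes scaled by TMM over the 5 libraries, so a level is a share of reads; when genes are compared with each other it is given per kilobase of exon. Where 5 values stand in a row, they are in the order WT-709, WT-719, WT-720, WT-723, WT-726. Errors are SD over 5 animals. No genotype was contrasted and no groups were tested against each other, so differences between animals are given as ratios and ranges; the labels name each library as a separate animal but do not say how the animals were related or on which day they were taken. Plag1 itself (NCBI Gene 56711; chromosome 4, 3898769 to 3938430) stood at 12.0, 12.9, 12.0, 12.5 and 14.0 CPM, a mean of 12.7 ± 0.835 CPM, and ranked 9371 among the genes. WT-726 was highest by a small margin, and the ratio of highest to lowest animal was 1.17.

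The labelled tissue was checked against markers of the duct. All 15 principal cell markers reached 1 CPM, among them Epcam, the epithelial adhesion molecule, at 363 ± 12.9 CPM, the duct transcription factor gene Pax8 at 227 ± 6.94 CPM and the water channel gene Aqp9 at 179 ± 14.1 CPM. Of the seminal vesicle and prostate list 5 of 12 genes reached 1 CPM, with a sum of 63.9 ± 5.01 CPM. Over all 41591 gene IDs 15949 reached a mean of 1 CPM, a share near 5 of 12, so this count alone does not speak for absence of those glands. Of the list of testis somatic cells 6 of 11 genes reached 1 CPM, above that share, with a sum of 134.8 ± 6.03 CPM. It was led by the steroid enzyme gene Cyp17a1 (55.6 ± 2.70) and the transcription factor gene Sox9 (41.3 ± 6.29), while the Leydig cell hormone gene Insl3 stood at 0.0295 ± 0.0307 CPM.

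Genes of 2 secreted proteins led the transcriptome. Crisp1, a cysteine-rich secretory protein that coats sperm, was the most abundant gene at 28780 ± 2485 CPM, and Gpx5, a secreted glutathione peroxidase that works without selenium, followed at 24820 ± 1754 CPM. Together they took 5.36 ± 0.371% of all counts, the 10 leading genes 11.3 ± 0.339% and the 100 leading genes 26.5 ± 0.43%. Of the 10 leading genes, Eef1a1 (rank 4, 9723 ± 616 CPM) and Glul (rank 10, 4113 ± 198 CPM) are on none of the secretory lists below. Adam7 (rank 3), a membrane protein, and Itm2b (rank 7) are on the list of other luminal proteins. A place on a list does not by itself mean that a protein is secreted. It took 740 ± 20.8 genes to hold 50% of an animal's counts. Of the 30 genes with the highest mean, 24 were among the 30 highest in all 5 animals. Protein-coding genes made up 13809 of the 15949 genes with a mean of at least 1 CPM and held 97.5% of the CPM, against 1.18% in 1275 long noncoding RNAs.

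The windows just before the annotated starts of 6 leading genes are shown because the most abundant transcripts differ in a core promoter element. The 6 show both forms and not their shares, which follow the sequences. Sequences are from RefSeq (GRCm38.p6), 60 bases long, 5′ to 3′ on the gene's strand and ending at the base before the first start that RefSeq lists for the gene, which for Gpx5 and Lcn5 lies inside the outer bounds of the gene; capitals mark TATAA where it lies in the 40 to 20 bases before the start.
Crisp1, chr17:40319208-40319267, minus strand: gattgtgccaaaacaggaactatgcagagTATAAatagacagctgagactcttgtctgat
Lcn5, chr2:25657892-25657951, plus strand: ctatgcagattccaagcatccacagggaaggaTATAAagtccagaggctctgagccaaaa
Lcn8, chr2:25653058-25653117, plus strand: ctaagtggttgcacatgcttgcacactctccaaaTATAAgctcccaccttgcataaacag
Gpx5, chr13:21292687-21292746, minus strand: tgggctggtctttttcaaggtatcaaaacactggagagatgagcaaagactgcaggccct
Cuzd1, chr7:131322293-131322352, minus strand: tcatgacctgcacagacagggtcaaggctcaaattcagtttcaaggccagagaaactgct
Itm2b, chr14:73385290-73385349, minus strand: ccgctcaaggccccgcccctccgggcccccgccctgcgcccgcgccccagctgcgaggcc
In Crisp1 the element begins 31 bases before the start, in Lcn5 28 and in Lcn8 26; the windows of Gpx5, Cuzd1 and Itm2b hold none at that place, and the Itm2b window is rich in G and C. Of the 100 leading genes, 77 had a promoter entry and 10 of these (13.0%) held TATAA at that place on the gene's strand, against 18 of 707 (2.55%) among the 900 genes next in rank and 2.15% of 12035 genes with a mean of at least 1 CPM. AGAACA, a steroid hormone response half-site motif, was searched on both strands over 300 bases around the start (250 before and 50 after) and can overlap TATAA by 1 base at most. It was found in 24 of the 77 leading promoters (31.2%), in 42 of 129 secretory genes (32.6%), in 13.2% of the 12035 promoters and in 19.0% of all 27025 promoters in the RefSeq table. The leading promoters had a median GC content of 54.3% and the 12035 one of 60.3%, and the part of base composition in these shares was not tested. A match describes the letters and not binding.

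Per length, the order of the leading genes changed in part. Crisp1 (20330 CPM per kilobase of exon) and Gpx5 (14820) kept ranks 1 and 2, and Lcn5, a retinoic acid carrier of the lipocalin family, ranked 3 at 5808. Cd52, a short lipid-anchored surface glycoprotein that the duct sheds onto sperm, moved from rank 19 to rank 4 per kilobase (5801), whereas Adam7, a membrane protein of the ADAM family, moved from rank 3 to rank 14 (3237). Of the 30 leading genes by CPM, 19 were also among the 30 leading per kilobase. Genes that entered the 30 by length were short secreted ones such as Defb47, Defb18, Defb28 and Defb42.

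**Figure D1:**
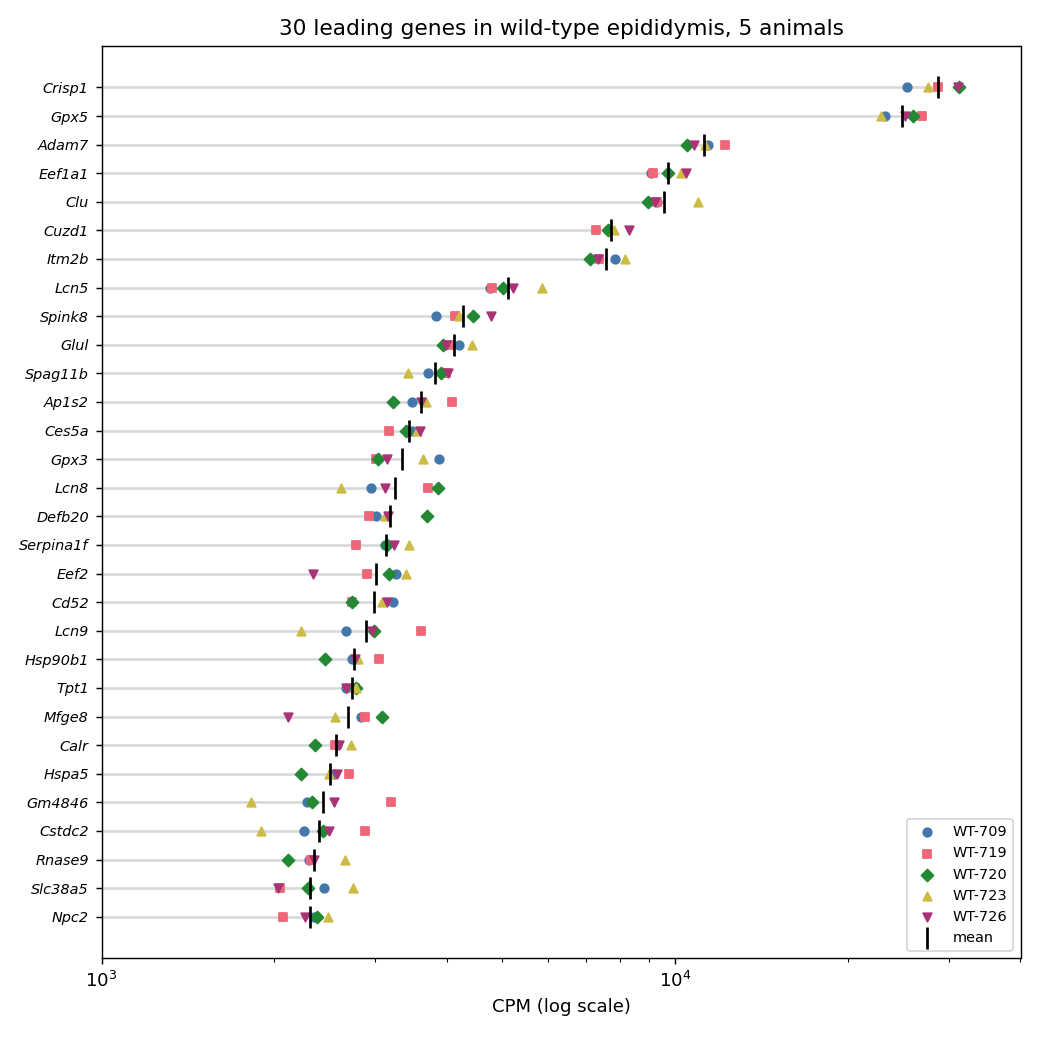
CPM (horizontal, log scale) of the 30 genes with the highest mean in the 5 WT animals; points are animals and black ticks are means. Crisp1 and Gpx5 lie more than 2-fold above Adam7, and the 5 points of each gene span less than 2-fold.

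The 11 lists of secreted and luminal proteins, 249 genes in all, held 17.4, 18.4, 18.2, 17.9 and 18.4% of the CPM, a mean of 18.1 ± 0.431%. WT-709 was lowest and the other 4 were close together. The lists supplied 16 of the 30 and 41 of the 100 leading genes. They were made by family, so they take in intracellular members such as Gpx4 and Gpx1 and the membrane protein gene Adam7. They leave out Cd52 and Cstdc2, so the share is that of the lists and not of all secreted proteins.

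Within the cysteine-rich secretory family 1 gene carried the level. Crisp1 (chromosome 17, 40293758 to 40319207) stood at 25330, 28690, 31200, 27570 and 31120 CPM, with WT-720 and WT-726 high and WT-709 low, a ratio of 1.23. Crisp4, which is also made by the duct epithelium, had 169 ± 8.37 CPM and Crisp2, best known from sperm, 10.7 ± 2.77 CPM. Crisp3, known from salivary and other glands, had 1.52 ± 0.227 CPM. Per kilobase of exon Crisp1 was at 20330 and Crisp4 at 123.7.

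Glutathione peroxidases, which remove peroxides, had the same form, with 28530 ± 1390 CPM summed over 8 genes. Gpx5 (chromosome 13, 21286429 to 21292727) stood at 23220, 26910, 25940, 22820 and 25190 CPM, highest in WT-719 and lowest in WT-723. The plasma and basement membrane form Gpx3 ran the other way for these 2 animals, at 3874, 3014, 3031, 3630 and 3141 CPM. The intracellular forms Gpx4 and Gpx1 were at 146 ± 10.6 and 84.8 ± 9.77 CPM, and Gpx2, known from the gut, was at 0.341 ± 0.0682 CPM.

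Lipocalins, small carriers of lipids, held 15810 to 17320 CPM over 16 genes, of which 11 reached 1 CPM. Their main members did not vary together: Lcn5 stood at 4752, 4794, 5009, 5851 and 5206 CPM and was highest in WT-723, whereas Lcn9 stood at 2673, 3602, 2990, 2227 and 2966 CPM and Lcn8 at 2955, 3703, 3854, 2619 and 3123 CPM, both lowest in WT-723. The iron-siderophore carrier Lcn2 and the prostaglandin D synthase Ptgds followed at 1872 ± 136 and 1507 ± 154 CPM. Lcn8, Lcn5, Lcn9 and Ptgds lie within chr2:25466709-25825546 and held 12770 CPM together.

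Beta-defensins, cationic antimicrobial peptides of which many in this organ bind sperm, had 44 measured genes including the related Spag11 genes. Of these, 36 reached 1 CPM and 33 reached 5 CPM, and their sum was 18960 ± 655 CPM. Spag11b led at 3706, 3990, 3912, 3419 and 4011 CPM, and Defb20 followed at 3006, 2926, 3689, 3119 and 3154 CPM, where WT-720 stood above the others. Per kilobase of exon Defb20 (4607), Defb47 (2693) and Defb28 (2372) were above Spag11b (2188). Members of this family can share sequence, so counts of close copies are uncertain.

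Protease inhibitors of 4 structural classes were present. The Kazal type had 10390 ± 730 CPM, led by Spink8 at 3823, 4133, 4434, 4204 and 4774 CPM. Serpins had 5583 ± 328 CPM, of which Serpina1f (3138 ± 239) and Serpina16 (1676 ± 96.9) made most; of 63 measured serpin genes 20 reached 1 CPM and 19 had no count in any animal. WFDC and Kunitz inhibitors had 4790 ± 306 CPM over 25 genes, with Wfdc15b and Wfdc8 at 774 ± 38.9 and 611 ± 34.4 CPM. Cystatins, inhibitors of cysteine proteases, had 3139 ± 376 CPM, mostly Cst11 (1693 ± 222) and Cst8 (687 ± 139), and varied most of the secretory lists, from 2585 CPM in WT-723 to 3613 CPM in WT-719. Cstdc2, a neighbour of Cst11 that was not on the cystatin list, had 2392 ± 358 CPM and is not in that sum. A count of 0 allows up to 3 counts per library, by counting error only.

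Epididymal RNases, small proteins of which several lack catalytic activity, held 5419 ± 349 CPM, nearly all in the neighbours Rnase9 (2349 ± 197) and Rnase10 (2301 ± 418). Rnase10 stood at 2050, 2924, 2344, 1812 and 2377 CPM, high in WT-719 and low in WT-723, and Rnase9 at 2300, 2320, 2117, 2661 and 2349 CPM, highest in WT-723. The PATE family, small proteins with a 3-finger-like fold, held 5144 ± 227 CPM, led by Pate6 at 1849 ± 120 CPM. Other luminal and sperm-binding proteins held 53300 ± 1350 CPM. Among them Adam7 stood at 11390, 12200, 10500, 11290 and 10770 CPM, the extracellular chaperone gene Clu at 9280, 9315, 8953, 10970 and 9237 CPM, and Cuzd1 at 7639, 7272, 7641, 7816 and 8311 CPM. Clu was high in WT-723 alone.

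Leading genes often lay next to each other. Of the 100 leading genes 31 had another of the 100 within 200 kb, against 14 of 99 in the next set by rank and 6, 7 and 6 of 100 in the 3 sets after it. Among the clusters were Teddm2, Teddm1b, Teddm1a and Glul on chromosome 1 (8720 CPM together), Glb1l2 with Gm1110 (3177 CPM) and Cyb561 with Ace (2367 CPM). The clusters were mostly secretory families: Adam7 with Adam28 (chr14:68497336-68655889; 13430 CPM together), Defb48, Defb47, Defb30 and Defb42 (chr14:62977524-63048606; 4822 CPM), Rnase10 with Rnase9 (chr14:51007751-51041903; 4651 CPM), Serpina16 with Serpina1f (chr12:103668808-103695529; 4813 CPM), Defb20 with Defb28 (chr2:152477063-152521447; 4121 CPM), Cst11 with Cstdc2 (chr2:148768618-148850962; 4085 CPM) and Pate6, Pate5 and Pate13 (chr9:35788050-35910796; 4090 CPM).

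Markers of all regions of the duct were present, as a whole organ contains them all. A whole organ gives no level by region, and some region markers also stand in the secretory lists. Caput markers held 65720 ± 1970 CPM, corpus and cauda markers 39900 ± 2440 CPM and initial segment markers 25500 ± 2320 CPM. Of the corpus and cauda sum most was Crisp1, which leaves Spink8, Gpx3 and Ptgds as the next members. Of the 19 corpus and cauda genes at 5 CPM or more, 1, Akr1b7, differed by 2-fold or more between the highest and the lowest animal. Without WT-720 0 of the 19 did. In the caput list 0 of 18 did, against 2.22% of all genes at that level.

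The initial segment list varied most of the 3, at 23940, 28530, 26430, 22550 and 26050 CPM, a ratio of 1.27. Of its 21 members at 5 CPM or more, 10 were highest in WT-719 and 12 lowest in WT-723, and 0 differed by 2-fold or more between the highest and the lowest animal. Over all 11966 genes at that level 2.22% differed by 2-fold or more, 22.4% were highest in WT-719 and 20.9% lowest in WT-723. Of the 21 members, 4 were highest in WT-720, 4 in WT-723 and 3 in WT-726, against 18.0, 14.3 and 26.1% of all genes. Examples are Lcn8, Rnase9 and Spag11b, in that order. Adam28 stood at 2013, 2787, 2182, 1710 and 2299 CPM, the cystatin gene Cst8 at 610.3, 874.3, 712, 504.7 and 731.5 CPM and Defb48 at 818, 1181, 939, 713 and 860 CPM, in each case with WT-719 above and WT-723 below the rest. Gm4846, Cstdc2 and Pate5, which are not on the list and were picked after their values were seen, had the same highest and lowest animal: Pate5 stood at 896, 1238, 1012, 737 and 1147 CPM. In bulk tissue fewer cells of a kind and less RNA per cell cannot be told apart.

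The plot of list sums sets these families beside the cell type markers. Sums of lists with different genes are shares of reads and not numbers of cells.

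**Figure D2:**
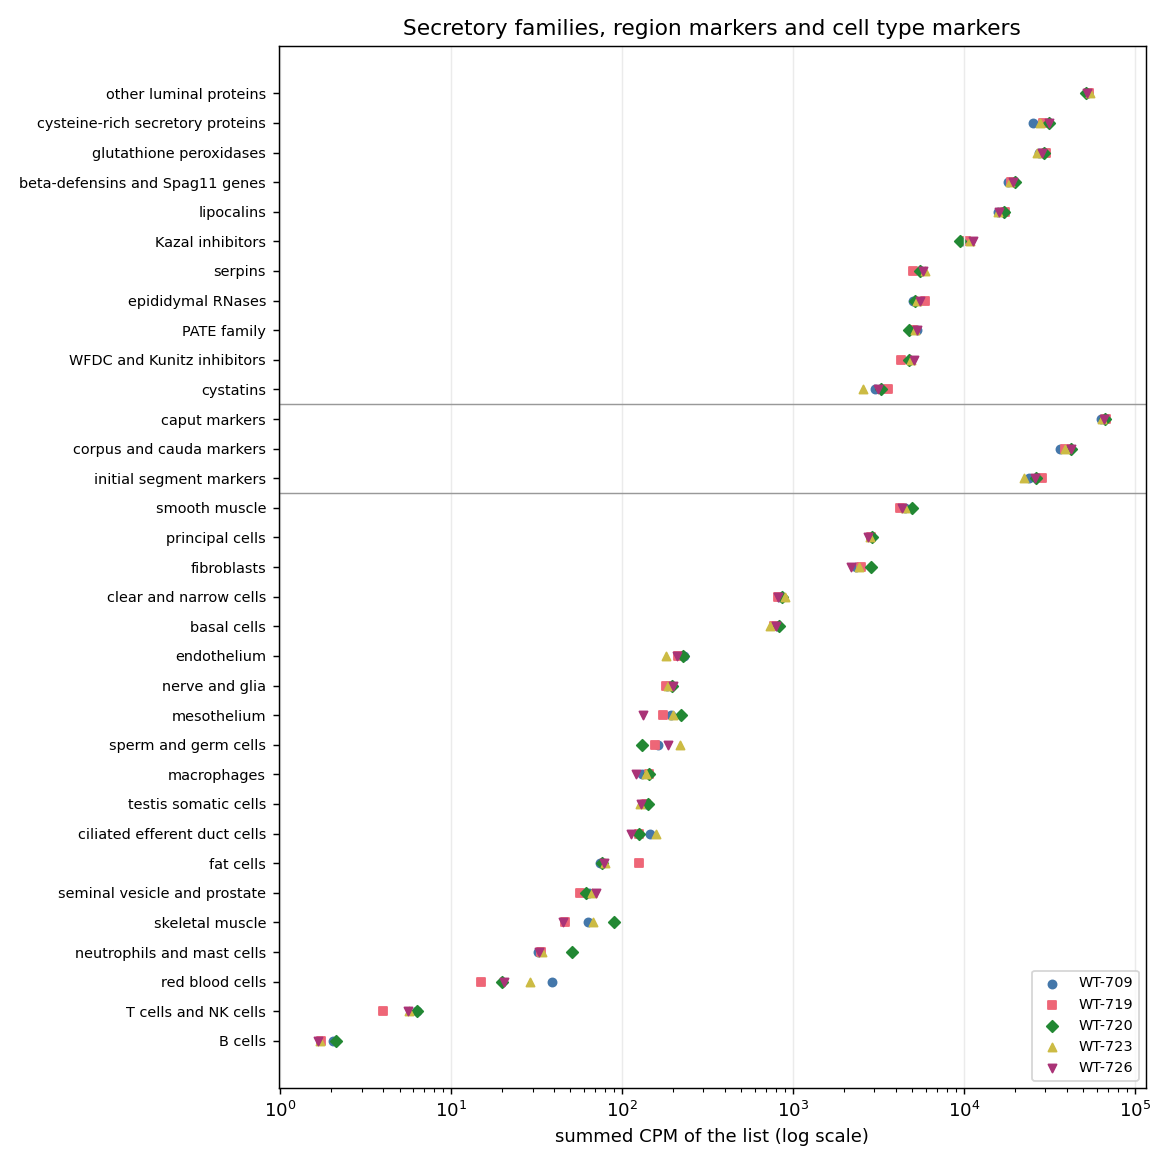
Summed CPM (horizontal, log scale) of each list of secretory family, region and cell type markers in the 5 WT animals, 1 point per animal, sorted within the 3 kinds. The lowest secretory point is the 2585 CPM of cystatins in WT-723, whereas the 2 lymphocyte lists average 5.59 and 1.86 CPM.

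Markers of the duct's principal, clear and basal cells were close between animals. The principal cell list summed to 2871, 2854, 2910, 2816 and 2767 CPM, a ratio of 1.05. Clear and narrow cell markers summed to 847 ± 36.5 CPM, with the ammonia channel gene Rhcg at 405 ± 40.5 CPM and the transcription factor gene Foxi1, which drives proton pump genes, at 85.3 ± 4.04 CPM. The proton pump subunit genes Atp6v0d2 and Atp6v1g3 had 69.6 ± 6.89 and 63.1 ± 4.57 CPM. Basal cell markers summed to 789 ± 36.6 CPM, with the keratin gene Krt5 at 140 ± 13.5 CPM and the basal cell transcription factor gene Trp63 at 73.6 ± 5.77 CPM; Aqp3 had no count in any animal. Ciliated cell markers, which belong to the efferent ducts that join the testis to the epididymis, summed to 134 ± 18.2 CPM and varied more, with a ratio of 1.41. Ccno led them at 62.9 ± 14.3 CPM, and the ciliary factor gene Foxj1 stood at 7.44, 7.24, 5.77, 10.9 and 4.41 CPM, highest in WT-723 and lowest in WT-726.

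Muscle and connective tissue followed. Smooth muscle markers summed to 4521 ± 288 CPM, led by the actin gene Acta2 (892, 807, 1076, 957 and 931 CPM) and the myosin gene Myh11 (917, 805, 808, 874 and 818 CPM). Fibroblast markers summed to 2348, 2489, 2847, 2431 and 2191 CPM. Of the 15 fibroblast genes 12 were highest in WT-720 and 9 lowest in WT-726, against 18.0% and 25.6% of all genes at 5 CPM or more. Both hold for the collagen gene Col3a1 at 277, 317, 398, 278 and 243 CPM. Endothelial markers summed to 212 ± 20.1 CPM and 8 of 11 were lowest in WT-723, against 20.9% of all genes. Nerve and glia markers summed to 189 ± 7.86 CPM. Of the 8 mesothelial markers the keratin gene Krt19, which duct epithelium can also make, held 178 ± 32.3 CPM of 184.1, and Msln had 1.28 ± 0.320 CPM.

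Immune cell lists differed in how many of their genes reached 1 CPM, which 15949 of all 41591 gene IDs did. Macrophage markers reached it in 14 of 15 genes and summed to 135.5 ± 9.86 CPM. Among them Lyz2 was at 21.5 ± 1.45 CPM and the growth factor receptor gene Csf1r at 18.5 ± 2.28 CPM. Markers of T cells and NK cells summed to 5.59 ± 0.939 CPM with 2 of 13 genes at 1 CPM, and those of B cells to 1.86 ± 0.208 CPM with 0 of 8. Cd52, which lymphocytes also make, was at 2982 ± 234 CPM beside these. Kit supplied 27.1 ± 1.73 of the 36.8 CPM of the neutrophil and mast cell list, while the mast cell protease genes Cma1 and Tpsb2 had 0.571 ± 0.143 and 0.519 ± 0.126 CPM.

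Hormone receptor and steroid enzyme genes summed to 881.5 ± 25.3 CPM; among them the 5-alpha reductase gene Srd5a2 had 156 ± 12.1 CPM, the prolactin receptor gene Prlr 118 ± 10.6 CPM and the estrogen receptor gene Esr1 83.8 ± 4.69 CPM. Transcription factors of the Wolffian duct, from which the organ forms, summed to 1097 ± 41.2 CPM, with Pax8 and the homeobox gene Emx2 (135 ± 7.91) among the leading ones. Of the 19 Wolffian duct genes at 5 CPM or more, Ehf, at 27.9, 13.4, 14.6, 17.7 and 15.6 CPM, and Cebpb, at 10.8, 7.09, 6.63, 5.85 and 3.96 CPM, differed by 2-fold or more between the highest and lowest animal, and both were highest in WT-709. Without WT-709 neither did, and without WT-719 or WT-726 only 1 of the 2 did. Transport genes summed to 1825 ± 26.0 CPM, a ratio of 1.03, the lowest of the 42 lists. Secretory chaperones and heat shock genes held 15310 ± 813 CPM, with Hsp90b1 at 2731, 3045, 2448, 2804 and 2771 CPM, and 12 of 20 were lowest in WT-720, against 19.8% of all genes. Ribosomal protein genes held 34400 ± 1570 CPM, with pseudogenes that can share their reads.

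The spread between animals was small for most genes. The biological coefficient of variation, edgeR's estimate of the spread beyond counting error, was 11.06% over 17352 genes. Among 11966 genes with a mean of at least 5 CPM the median ratio of highest to lowest animal was 1.21 and the median CV 7.69%. At least 2-fold between the highest and the lowest animal were 266 of them, 2.22%, and this share is the background for every list below. The share fell with level, from 5.963% at 1 CPM or more to 0.9598% at 20 CPM or more. At 100 CPM or more 10 of 1941 genes were past 2-fold. The 2.22% was not matched to level, so it is low for lists near 5 CPM and high for lists of abundant genes. Without WT-726 the count at 5 CPM or more was 143 in place of 266. Among genes at 100 CPM or more, the lowest CV belonged to Prdx6, a peroxidase of the cytosol, at 552.9, 551.9, 562.7, 555.4 and 556.4 CPM. Every pair of libraries differed beyond counting error, with a chi-square per degree of freedom of 6.26 to 19.62. The labels give each as its own animal, and none was merged.

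The secretory lists had 3 of 145 genes at 5 CPM or more past 2-fold: Crisp2, Rnaset2b and Spink14. None was among the leading genes, and 3 of 145 is near the background share. Spink14 stood at 64.8, 35.8, 19.4, 61.5 and 65.7 CPM, lowest in WT-720. Without WT-720, neither Spink14 nor Crisp2 was past 2-fold, and Rnaset2b was also below it; Crisp2 was below it without WT-723 too, and Rnaset2b without WT-719. The 3 epithelial lists of principal, clear and basal cells had 0 of 33, and the clock, chaperone and transport lists had 0 of 53.

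**Figure D3:**
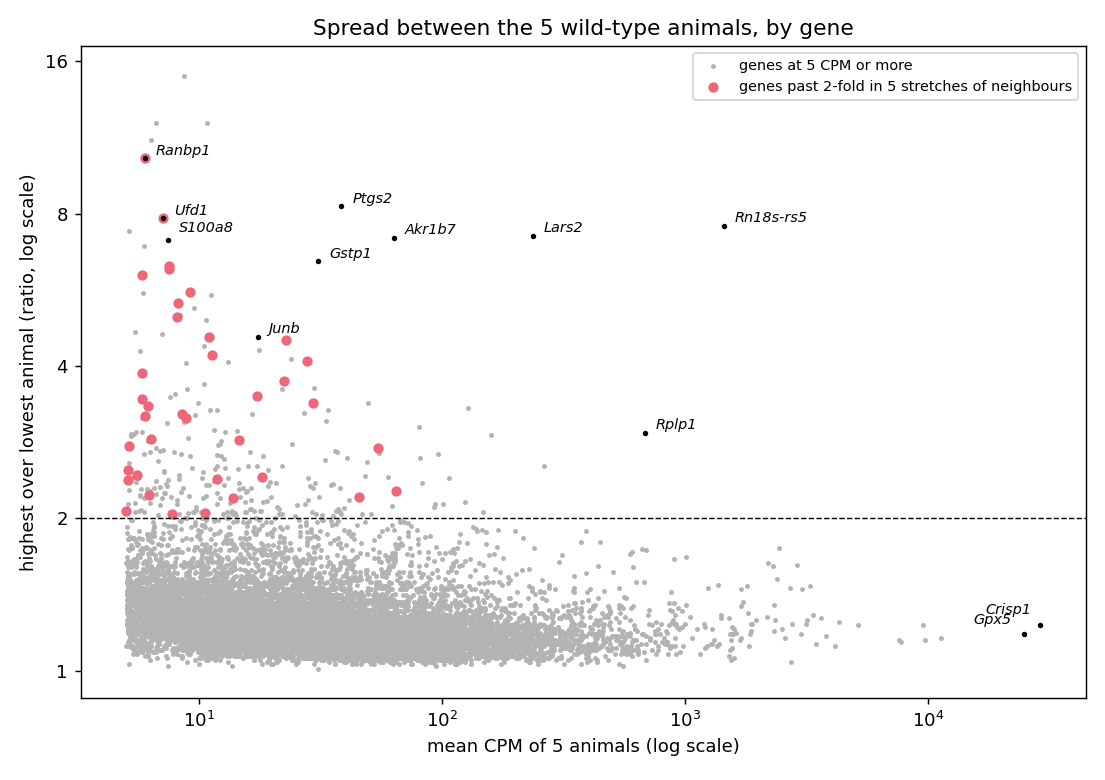
Ratio of the highest to the lowest of the 5 WT animals (vertical, log scale) against mean CPM (horizontal, log scale) for 11966 genes; each point is a gene, the dashed line is 2-fold, and red points are genes past 2-fold in 5 stretches of neighbouring genes. Ptgs2, Akr1b7, Lars2 and Rn18s-rs5 stand far above genes of like level, and Crisp1 and Gpx5 lie near the base.

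Lists with more genes past 2-fold were mostly those of minor cell types. Of 8 sperm and germ cell genes at 5 CPM or more, 5 were past 2-fold: Prm2, Smcp, Odf1, Ldhc and Akap4. The protamine gene Prm2, which packs sperm DNA, stood at 15.7, 17.3, 11.2, 29.7 and 17.8 CPM, the sperm tail gene Odf1 at 16.2, 13.1, 9.97, 22.5 and 16.1 CPM and the mitochondrial capsule gene Smcp at 16.1, 18.2, 9.36, 23.8 and 18.7 CPM. WT-723 was highest and WT-720 lowest for all 3. Without WT-720 the count was 0 and without WT-723 it was 2. Odf2, the most abundant gene of the list at 59.8 ± 4.47 CPM, had a ratio of 1.19, highest in WT-723 and lowest in WT-719. Gapdhs, with a ratio of 1.31, was highest in WT-726 and lowest in WT-719. How much sperm the wash left in each organ was not measured.

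Of 4 fat cell genes at 5 CPM or more, 3 were past 2-fold and all 3 were highest in WT-719. The fatty acid binding gene Fabp4 stood at 5.04, 19.5, 4.80, 5.85 and 8.98 CPM, the lipase gene Lpl at 7.90, 18.2, 7.56, 8.07 and 9.51 CPM and the carbonic anhydrase gene Car3 at 4.73, 19.7, 3.91, 6.58 and 6.77 CPM. The fat hormone gene Adipoq, at 1.01, 2.88, 0.502, 1.35 and 1.27 CPM, had the same highest animal. Without WT-719 the count was 0. Plin4, the most abundant gene of the list at 48.6 ± 4.71 CPM, was not highest in WT-719.

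Of 8 cell cycle genes 3 were past 2-fold. The proliferation marker Mki67 stood at 25.2, 15.5, 11.7, 22.4 and 16.3 CPM and the topoisomerase gene Top2a at 15.96, 10.5, 7.82, 15.5 and 12.6 CPM, with WT-709 and WT-723 high and WT-720 low in both. Cdk1 was the other one. The count was 0 without WT-720 and 1 without WT-709. Pcna, the most abundant gene of the list at 39.1 ± 1.32 CPM, had a ratio of 1.09 and was lowest in WT-726. Mcm2, the next, had a ratio of 1.33, highest in WT-709 and lowest in WT-726. Of the 13 immediate early genes 5 were past 2-fold and 9 were lowest in WT-726, against 25.6% of all genes, with Junb at 28.5, 12.1, 19.6, 20.4 and 6.24 CPM and Egr1 at 23.6, 21.4, 40.01, 40.2 and 17.3 CPM. Without WT-726 the count was 3. The most abundant member was Egr2, at 269, 293, 284, 227 and 232 CPM, a ratio of 1.29. Of the 78 ribosomal protein genes 4 were past 2-fold and without WT-726 it was 1; Rplp1 stood at 915, 501, 785, 887 and 311 CPM.

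**Figure D4:**
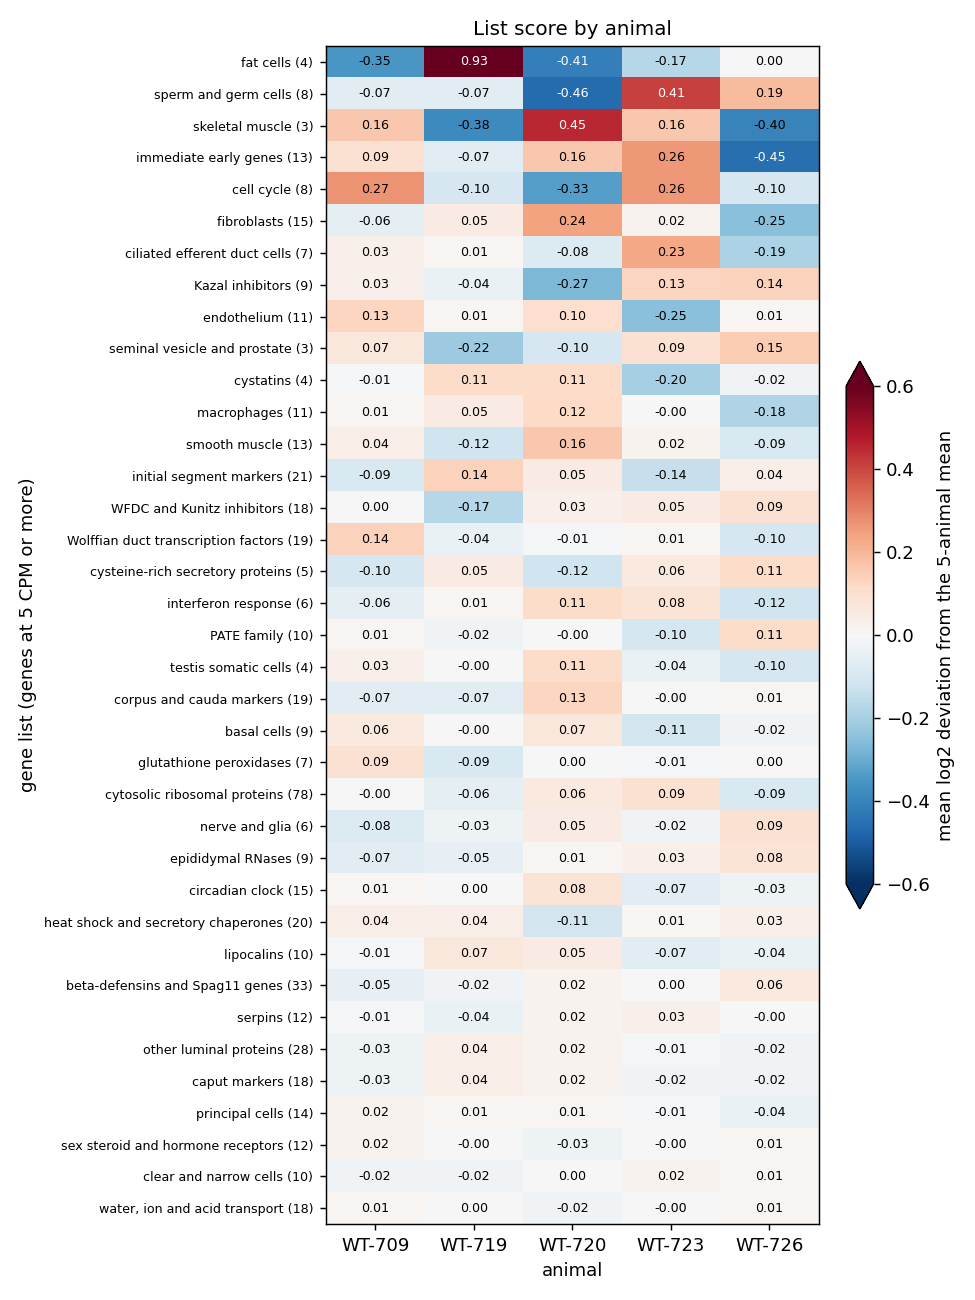
Mean log2 deviation of each list from the 5-animal mean, by animal, over its members at 5 CPM or more (their number in brackets), for the lists with at least 3 such members; lists are sorted by their spread, red is above the mean and blue below, and the colour stops at 0.6 either way. Fat cells in WT-719 reach 0.93, sperm and germ cells 0.41 in WT-723 and -0.46 in WT-720, skeletal muscle 0.45 in WT-720 and -0.40 in WT-726, and immediate early genes -0.45 in WT-726, while transport, clear cell and hormone receptor lists lie within 0.03 of the mean.

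Single genes went further than any list. The prostaglandin synthase gene Ptgs2 stood at 14.4, 24.7, 119, 14.4 and 19.5 CPM and the aldo-keto reductase gene Akr1b7 at 29.7, 28.0, 194, 27.0 and 36.4 CPM, in both cases with WT-720 far above the other 4. The neutrophil protein gene S100a8 was also highest there, at 5.58, 2.73, 19.4, 4.20 and 5.18 CPM, while its partner S100a9 had 0.160 ± 0.120 CPM. Other genes followed WT-726: Rn18s-rs5, a ribosomal RNA-like sequence, stood at 850, 475, 1447, 828 and 3596 CPM and the leucine tRNA ligase gene Lars2 at 148, 78.4, 224, 160 and 568 CPM, both highest in WT-726 and lowest in WT-719. Ribosomal RNA genes and pseudogenes took 0.0860, 0.0474, 0.146, 0.0835 and 0.362% of the counts. This set includes Rn18s-rs5 and is made mostly of it, so its highest and lowest animal are those of Rn18s-rs5 and add nothing separate. The part of ribosomal RNA in the Lars2 values was not tested.

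Transcript GC content moved with the animal. Over 11292 genes with a GC content (94.4% of those at 5 CPM or more), the Spearman correlation across genes between GC and an animal's log2 deviation from the mean was 0.52, -0.52, 0.53, 0.49 and -0.70. The 5 values share the mean they are measured from, and genes are not independent. Genes were sorted by GC into 10 bins of equal size. In the richest bin (57.9% or more) the median deviation was 0.18, -0.11, 0.12, 0.11 and -0.30, and 106 of 1130 genes (9.38%) were past 2-fold, 95 of them lowest in WT-726. In the poorest bin (41.8% or less) 10 of 1130 (0.885%) were. WT-726 had the lowest level of 149 of the 266 genes past 2-fold and of 3060 of all 11966. When each animal was centred within these bins, a setting chosen after seeing the data, 147 of the 11292 genes were past 2-fold in place of 233, and 139 were past it both ways. The sperm list then had 4 of 8, fat cells 3 of 4, cell cycle 3 of 8, ribosomal proteins 4 of 78 and immediate early genes 3 of 13. The immediate early score in WT-726 was -0.36 in place of -0.45. Ciliated cells went from 1 to 0 of 7 (Foxj1, ratio 2.47 to 1.89) and skeletal muscle from 1 to 0 of 3 (Acta1, 2.09 to 1.77). The Wolffian duct list went from 2 to 1 of 19, with Ehf left and Cebpb lost. In the other direction, fibroblasts went from 1 to 2 of 15 and beta-defensins from 0 to 1 of 33.

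**Figure D5:**
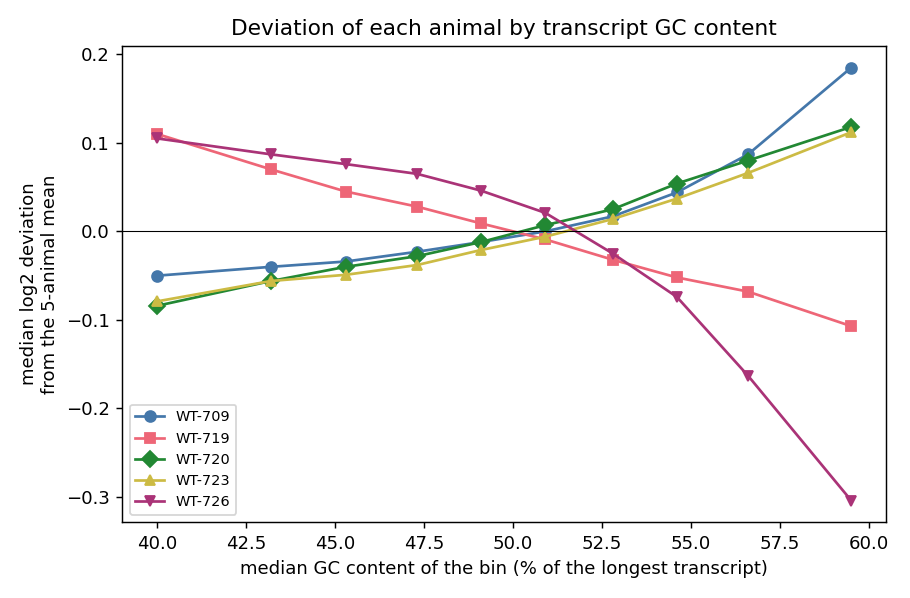
Median log2 deviation of each WT animal from the 5-animal mean (vertical) for 10 bins of genes sorted by GC content of the longest transcript (horizontal, the median of each bin in %); each line is an animal. WT-726 and WT-719 go from above to below the mean as GC grows, the other 3 go the other way, and WT-726 reaches -0.30 in the last bin.

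Genes past 2-fold also lay in stretches. In 5 stretches of neighbouring genes, picked after their values were seen, 37 of 55 genes at 5 CPM or more were past 2-fold. The stretch chr16:17840355-18835261 held 7 of 10, among them Ranbp1, a Ran GTPase regulator, at 21.1, 2.28, 2.29, 2.05 and 2.08 CPM, and Ufd1, a protein degradation factor, at 2.25, 2.53, 2.80, 17.6 and 10.2 CPM. The stretch chr11:69916712-70662513 held 11 of 15, and chr17:33996012-35122053, within the major histocompatibility complex, 10 of 16, where H2-Aa stood at 3.06, 17.2, 2.72, 10.9 and 3.47 CPM. On chromosome 11 and in this stretch of chromosome 17 each of the 5 animals was the highest for at least 1 gene. In the stretch chr8:70768176-70917529, which held 4 of 6, Mast3, Ccdc124 and Map1s were highest in WT-709 and lowest in WT-726. Without the 5 stretches 229 genes were past 2-fold.

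Some well-known transcripts were nearly without counts, and statements on them are limited to the table as deposited. Tagln, a smooth muscle protein gene on chromosome 9 that overlaps Pcsk7, had 3 to 14 counts per library (0.378 ± 0.159 CPM) beside Acta2 at 933 CPM. Gapdh had 44.0 ± 5.19 CPM. Aif1, a macrophage gene, and Cldn5, an endothelial one, had 0.0679 ± 0.0403 and 0.177 ± 0.0586 CPM and lie in or within 100 kb of the stretches above. Among red blood cell genes Hba-a1 stood at 19.98, 4.56, 8.07, 13.4 and 5.999 CPM and Hbb-bs at 0.187 ± 0.110 CPM. Counts of genes that overlap others or have near-identical copies are uncertain, and the part of counting in these values was not tested.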

How the data were processed

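Raw counts per gene (NCBI Gene IDs) were deposited by the authors; per the submitters' processing notes the build was GRCm38.p6, reads were handled with FastQC and HISAT2 (version 2.0.5), and the Subread release (1.4.6p5) supplied featureCounts. Strand setting and annotation release are not given in the sources used here. From the 5 WT columns (10 others not used), TMM library sizes (edgeR 4.0.16, R 4.3.3) gave CPM. Of 41591 IDs 97.1% were named, 40290 through RefSeq. Exon length (GENCODE vM21 basic set) and GC content of the longest transcript were taken from GENCODE. Dispersion was estimated with an intercept-only edgeR fit, tested on simulated data; no groups were tested against each other. Alternatives were total counts, DESeq2 1.42.0 size factors, library sizes without the 20 leading genes, other filters and each animal left out.

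The genes named are Plag1, the 30 leading genes, the 5 leading members of each of 42 lists, the 15 widest ratios (at 5 CPM or more) and the 10 lowest CVs (at 100 CPM or more). Others named were chosen after their values were seen. The lists were chosen with earlier results of these data known; 7 listed names had no match and 3 matched by a synonym. Mitochondrially encoded genes are not analysed here but stay in library sizes. Tables were handled in pandas 2.3.3 (Python 3.11.15) and drawn with matplotlib 3.10.9.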

Additional observations from a re-analysis of the deposited data

Results flagged for a closer look

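In 5 animals a value was singled out when the highest or lowest animal lay apart from its nearest neighbour by more than 0.71 of the whole range (Dixon's 95% limit for 5 values). Chance alone singles out about 1 in 20 groups of unselected, independent values; that rate does not hold here for genes named for their wide ratio (Ranbp1, Ptgs2, Akr1b7 and S100a8) or for lists counted beside their members. In all, 42 list sums and 218 named genes were looked at, and 22 were found, 9 of them for WT-720, 8 for WT-719, 2 for WT-723, 2 for WT-726 and 1 for WT-709.

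In WT-719, the fat cell list summed to 126 CPM against 74.3 to 79.6 CPM in the other animals. Its members Lpl (18.2 against 7.56 to 9.51), Fabp4 (19.5 against 4.80 to 8.98), Car3 (19.7 against 3.91 to 6.77) and Cfd (10.1 against 1.68 to 3.65 CPM) stood out as well. The homeobox gene Emx2 was high there at 149 CPM against 130 to 133, whereas the inhibitor gene Wfdc13 (355 against 425 to 442 CPM) and the NK cell gene Klrb1c (0.546 against 1.28 to 1.47 CPM) were low.

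In WT-720, the neutrophil and mast cell list summed to 51.4 CPM against 32.3 to 34.0, with S100a8 at 19.4 against 2.73 to 5.58 CPM. Also high were Ptgs2 (119 against 14.4 to 24.7), Akr1b7 (194 against 27.0 to 36.4), Defb47 (1100 against 905 to 960), the myelin gene Pmp22 (56.8 against 47.0 to 48.9), the interferon-induced gene Gbp2 (9.11 against 6.93 to 7.55), the fast muscle troponin gene Tnnt3 (4.84 against 1.13 to 1.67) and the seminal vesicle gene Svs4 (3.55 against 0.0387 to 0.621 CPM).

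In WT-723, Clu was at 11000 CPM against 8950 to 9310, and the cilium gene Rsph1 at 14.8 against 12.2 to 12.6. In WT-726, the immediate early list summed to 449 CPM against 548 to 583, and the sodium channel gene Scn7a was at 10.9 against 8.33 to 8.85. In WT-709, Ranbp1 was at 21.1 CPM against 2.05 to 2.29.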

How the results depend on the processing

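With library sizes taken without the 20 most abundant genes, the 10 leading genes held 13.22% in place of 11.29% and the secretory lists 21.15% in place of 18.07%, by construction, since every list sum grew by 1.17-fold; on total counts, with DESeq2 size factors and with each animal left out, all 42 list sums moved by less than 1 SD. The 266 genes past 2-fold became 951 at a mean of at least 1 CPM, 75 at 20 CPM and 6055 with only 1 count required in every animal, as genes of low counts entered or left. Leaving out 1 animal gave 143 (without WT-726) to 256 (without WT-719), and centring within 10 GC bins gave 147 in place of 233 among the 11292 genes with a GC content; the cause was not tested. Other scalings gave 274 to 298, and leaving out the stretches of neighbours, also chosen after seeing the data, gave 229. The coefficient of variation ran from 9.752% (without WT-726) to 11.65% (without WT-723) around 11.06%. Of the 30 leading genes 19 stayed per kilobase of exon and 18 per kilobase of the longest transcript. No paired analysis was possible because there was 1 group. Depth limits genes near 0, and 5 animals limit every range.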

Other observations

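Some genes known from other organs had counts in every animal. Cyp17a1, a steroid enzyme of Leydig cells, stood at 54.8, 52.9, 59.0, 53.3 and 57.8 CPM, while the Leydig cell gene Insl3 had 0.0295 CPM. The inhibin subunit gene Inha had 23.0 ± 3.83 CPM, and the matrix protease gene Mmp7 had 33.6 ± 2.47 CPM. Of the 12 seminal vesicle and prostate genes 7 were below 1 CPM, as were most of the 41591 gene IDs. Acta1, the skeletal muscle actin gene, stood at 37.0, 28.0, 53.5, 41.0 and 25.6 CPM, with Ckm at 9.30 ± 2.25 CPM. WT-720 was highest and WT-726 lowest for Acta1, as for the sum of the skeletal muscle list (63.1, 46.2, 90.1, 67.3 and 45.0 CPM). Acta1 made up 37.0 of the mean sum of 62.4 CPM, so the sum adds little that is separate. Ckm was highest in WT-723, and the troponin gene Tnnc2 was lowest in WT-719.

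The labels give no time of collection. The 16 genes of the circadian clock summed to 774 ± 39.2 CPM (SD, n = 5), and 0 of 15 at 5 CPM or more were past 2-fold, with a median ratio of 1.24 against 1.21 over all genes. Arntl stood at 13.3, 12.5, 12.4, 12.2 and 13.3 CPM. Nr1d1 stood at 21.7, 16.3, 27.4, 19.2 and 17.6 CPM, and Bhlhe40, with the widest ratio of the 15 (1.75), at 102, 149, 127, 84.7 and 110 CPM. Interferon response genes summed to 108 ± 7.49 CPM, with 0 of 6 past 2-fold.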
